A study of Mus musculus with 18 samples.

Results

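The comparison described here asks how the effect of thalidomide on gene expression in mouse embryoid bodies changed between 48 h and 72 h of exposure. It is a difference of differences on the log2 scale: the exposed minus control signal at 72 h, less the exposed minus control signal at 48 h. Its means come from 12 of the 18 arrays of the series, 3 in each of 4 groups, for 22180 genes. The spread behind its tests was estimated over all 18 arrays. A value above 0 means that a gene's signal in exposed relative to control cultures was higher at 72 h than at 48 h.

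The cultures were C57BL/6 embryonic stem cells, differentiating as embryoid bodies. The exposed groups received 0.25 mM thalidomide, starting on day 3 at the embryoid body stage, for 48 h or 72 h. The control groups of 48 h and 72 h received the vehicle, 0.25% DMSO, per the treatment protocol. The series description instead calls the controls unexposed, and their source names count hours since the bodies formed, so the labels do not settle that control and exposed cultures had the same age. The 24 h groups, exposed and control, do not enter the difference but do enter that estimate of the spread, and their own effects are given beside it. A re-analysis tag stands in the titles of all 9 control arrays and of the 24 h exposed arrays, and in none of the 6 other exposed titles. An additive effect of that tag is the same at both times and cancels in the difference. One that grew or shrank with time would not, and was not tested. In the effect at 48 h alone or at 72 h alone, tag and treatment cannot be told apart. Between 24 h and 48 h the tag does not cancel.

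Thalidomide binds cereblon, the receptor subunit of a ubiquitin ligase, and redirects the ligase to new target proteins. It is a human teratogen of limb, heart and ear, and mice are far less sensitive to it. Embryoid bodies are aggregates of stem cells in which pluripotency is lost and derivatives of the 3 germ layers, among them beating heart muscle, endothelium and neural cells, arise side by side. The labelled cell type, embryonic stem cell, describes the starting cells. Nanog, a core pluripotency factor, averaged 5.30 ± 0.72 on exposed and 4.82 ± 0.33 on control arrays at 72 h, whereas the heart muscle gene Tnnt2 averaged 9.65 ± 0.82 and 10.78 ± 0.04 (SD, n = 3 each). Both are single examples. Other pluripotency genes were brighter: Sall4 averaged 9.85 with its brighter probe set and Klf5 7.95 over all 18 arrays. Between 48 h and 72 h, 22 pluripotency genes had a median course of -0.11 on exposed and -0.14 on control arrays (all genes: -0.02 on each). RNA came from whole cultures, so fewer cells of a type and less RNA per cell cannot be told apart.

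Correlations between arrays of the same group were 0.992 to 0.996 across genes, and array medians lay between 5.37 and 5.46. The third exposed array of 72 h stood apart from the other exposed arrays of that time. Its score on the first principal component, which held 44.4% of the variance and followed time, was 14.6, against 23.16 and 21.99 for the others. Its mean over 27 sarcomere genes was 6.04, against 6.60 and 6.58, and its mean over 20 neural genes was 6.48, against 6.21 and 6.13. The third control array of 72 h lay the other way in the neural genes, at 5.62 against 5.95 and 5.99. Without this control array 2 of the 21 genes called below kept their call, Sdhc and H2bc12. Without the third exposed array 9 did: Sdhc, H2bc12, Bod1, Dexi, Got1, Myh6, Fabp7, Tm2d3 and Tox3.

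The effect of thalidomide changed between 48 h and 72 h for 21 of 22180 genes in limma with Benjamini-Hochberg adjustment (0.0947% of genes). It was higher at 72 h for 14 of them (0.0631%) and lower for 7 (0.0316%). The 14 changes upward lay between 0.53 and 2.29 on the log2 scale, and the 7 downward between -1.92 and -0.47. At an unadjusted p under 0.05 there were 3110 genes (14% of those tested), where 1109 would fall by chance. Of all genes, 11229 had a change above 0 and 10951 one below 0. The count depended on the fit. The 12 arrays alone gave 2 higher and 0 lower, a replicate block 3 and 2, trend and robust options 276 and 74, and genes at or above the median signal 292 and 73. Leaving out 1 of the 12 arrays in turn gave 2 to 31 genes. Sdhc and H2bc12 passed in all 19 alternatives, and 15 of the 21 genes passed in 9 or fewer. The step before, between 24 h and 48 h, gave 0 called genes in limma (0%) and 1701 at an unadjusted p under 0.05. No other tool was run on it, and the tag does not cancel in it.

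The number of genes called for an exposure effect fell over this interval, while the sizes of the effects fell less. Genes with an effect of at least 1.5-fold numbered 145 at 24 h, 170 at 48 h and 137 at 72 h. The SD of the effects over all genes was 0.184, 0.194 and 0.152 at these times. At 24 h 1521 genes were called (6.86%), 316 higher (1.42%) and 1205 lower (5.43%) on exposed arrays. At 48 h 1349 were called (6.08%), 410 higher (1.85%) and 939 lower (4.23%). At 72 h 2 genes were (0.00902%), with 2023 at an unadjusted p under 0.05. Those 2 were lower on exposed arrays: Ryr2, the calcium release channel of heart muscle, at -0.84, and Cacna1c, its L-type calcium channel, at -0.79 (limma adjusted p = 0.0328 for each). Leaving out 1 array in turn gave 0 to 81 genes at 72 h, with 0 when the third exposed array of 72 h was left out and 81 when the first was. The 12 arrays alone gave 0 genes at 72 h, trend and robust options 30, and genes at or above the median signal 38. Across all genes, the effects at 24 h and 48 h, which share no arrays, correlated at r = 0.494, and those at 48 h and 72 h at r = 0.140. Genes are not independent replicates, and these values describe the arrays only. Tag and treatment cannot be told apart in the effects at 48 h and at 72 h.

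Between 48 h and 72 h, exposed cultures changed in 10.2% of genes (6.42% rose and 3.76% fell) and control cultures in 6.53% (3.62% rose and 2.9% fell). Of the 21 genes, 18 had also been called at 48 h (6.08% of all genes). On exposed arrays 13 were lower (4.23%) and 5 higher (1.85%). The 48 h arrays are part of the difference that picked these genes, so effects at 48 h are favoured by the choice. None was called at 72 h (0.00902% of all genes). For 14 of the 21 the effect at 72 h was under 0.2 in size, and the exposed and control arrays of 72 h overlapped for 12 of these. In all 14 the exposed cultures moved more than the controls between the times. At 24 h all 14 genes were called too, in the direction they had at 48 h, against 6.86% of all genes. The means of the 24 h arrays are not part of the difference, but these arrays entered the estimate of its spread. Over all genes the effects at 24 h and 48 h correlated at r = 0.494. The remaining 7 genes had an effect at 72 h over 0.2 in size and of opposite sign to that at 48 h. Some of the 14, such as Stx6 and Myd88, changed sign too, at a size under 0.2. Exposed and control arrays of 72 h did not overlap for any of the remaining 7. At 24 h 0 of these 7 were called (6.86% of all genes). The limit of 0.2 was chosen after the values were seen. It and the choice of genes favour overlap in the 14 and gaps in the 7. Shares of overlap over all genes were not counted.

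**Figure D1:**
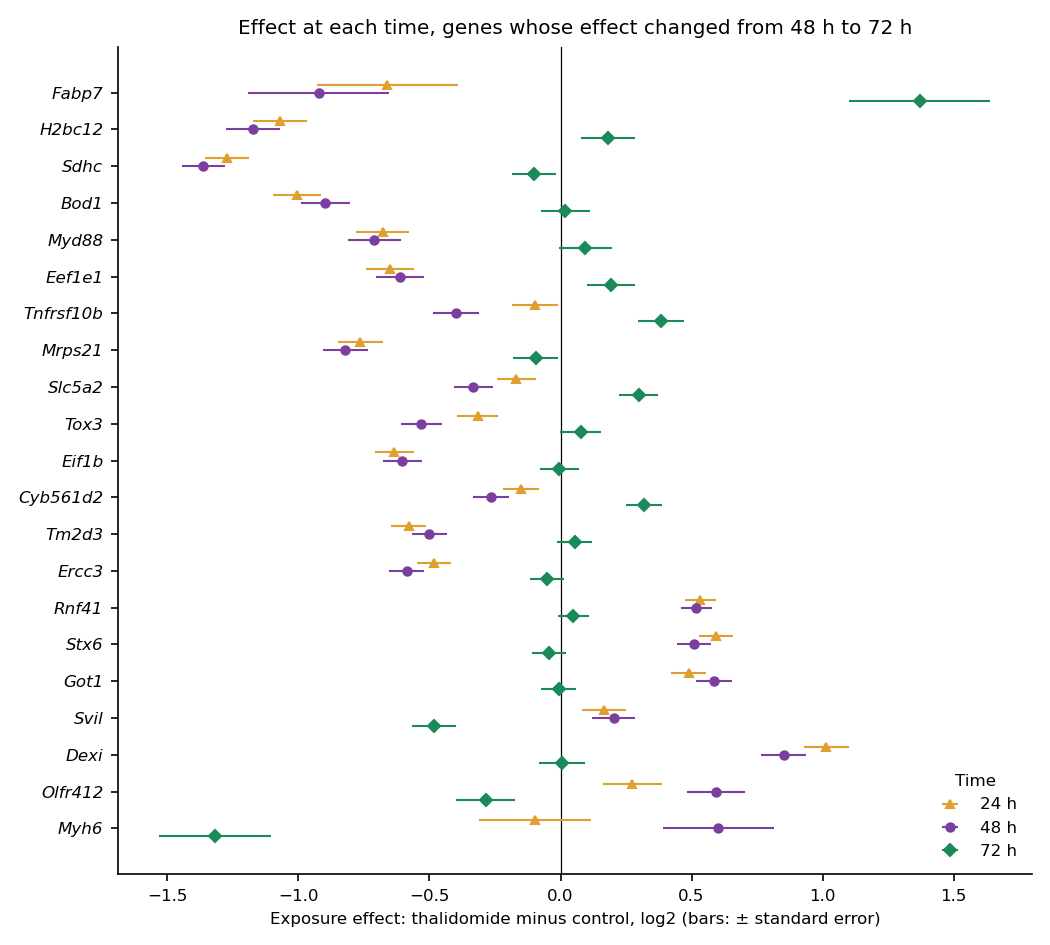
Exposure effect (thalidomide minus control, log2, with standard error) at 24 h, 48 h and 72 h for the 21 genes whose effect changed between 48 h and 72 h, ordered by the change. For 14 genes the 24 h and 48 h symbols lie together and the 72 h symbol lies within 0.2 of 0, in some on the opposite side. For the other 7, Myh6 and Fabp7 among them, the 72 h symbol lies over 0.2 from 0, on the opposite side from the 48 h symbol.

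Promoter sequence is shown for H2bc12, low on exposed arrays at the early times, Dexi, high at the early times, and Myh6, low at 72 h, from RefSeq (GRCm38.p6), 250 bases before to 50 after the start of the gene, written 5′ to 3′ along the gene. Capitals mark matches on either strand to the TATA box TATAAA, the CAAT box CCAAT, the octamer ATTTGCAT known from histone H2B promoters, and the GC box GGGCGG. No match overlaps another.
H2bc12 promoter, chr13:22035571-22035870, plus strand: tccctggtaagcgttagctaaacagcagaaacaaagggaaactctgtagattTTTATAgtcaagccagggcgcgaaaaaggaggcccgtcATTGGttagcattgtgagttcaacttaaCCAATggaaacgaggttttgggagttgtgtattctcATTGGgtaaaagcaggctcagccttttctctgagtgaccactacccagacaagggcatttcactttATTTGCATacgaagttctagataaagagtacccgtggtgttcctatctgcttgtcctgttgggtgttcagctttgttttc
Dexi promoter, chr16:10543005-10543304, minus strand: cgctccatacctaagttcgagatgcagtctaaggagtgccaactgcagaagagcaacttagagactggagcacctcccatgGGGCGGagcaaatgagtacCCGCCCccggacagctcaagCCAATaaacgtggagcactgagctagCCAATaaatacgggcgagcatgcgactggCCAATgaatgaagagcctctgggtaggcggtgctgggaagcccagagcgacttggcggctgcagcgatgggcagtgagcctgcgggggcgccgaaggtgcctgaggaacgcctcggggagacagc
Myh6 promoter, chr14:54966558-54966857, minus strand: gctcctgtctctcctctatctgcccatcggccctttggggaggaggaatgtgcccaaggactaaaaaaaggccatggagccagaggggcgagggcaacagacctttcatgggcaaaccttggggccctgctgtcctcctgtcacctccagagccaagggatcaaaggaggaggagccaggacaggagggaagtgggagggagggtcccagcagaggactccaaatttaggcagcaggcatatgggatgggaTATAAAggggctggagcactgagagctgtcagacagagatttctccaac
The H2bc12 window held 1 TATAAA, 3 CCAAT and 1 ATTTGCAT match. The Dexi window held 3 CCAAT and 2 GGGCGG matches, and that of Myh6 held 1 TATAAA match. Of the 21 called genes 14 matched a table entry, with 15 windows. Of these windows 20% held TATAAA, 40% CCAAT, 13.3% ATTTGCAT and 46.7% GGGCGG. Of all 32851 windows 13.6% held TATAAA, 37.4% CCAAT, 1.74% ATTTGCAT and 35.7% GGGCGG. A match of letters is a description and does not show that a factor binds.

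Sdhc encodes a membrane anchor subunit of succinate dehydrogenase, which links the citric acid cycle to the respiratory chain. At 24 h Sdhc had log2 signals of 7.48, 7.59 and 7.44 on exposed arrays, against 8.78, 8.75 and 8.80 on control arrays. At 48 h Sdhc had 7.49, 7.33 and 7.27 on exposed arrays, against 8.69, 8.71 and 8.78 on control arrays. At 72 h Sdhc had 8.74, 8.55 and 8.41 on exposed arrays, against 8.58, 8.75 and 8.67 on control arrays. Exposed arrays lay far below the controls at the first times, while at 72 h the groups overlapped and the control signal had hardly moved. Its effect changed by 1.26 ± 0.12 (SE; limma adjusted p = 0.000166). The course between 48 h and 72 h was 1.20 on exposed arrays and -0.06 on control arrays. The 95% interval of the effect at 72 h was -0.28 to 0.07, which still holds decreases of up to 0.28 in size.

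No other gene of succinate dehydrogenase was called for a change of effect. Of 8 measured genes for its subunits and assembly factors, only Sdhc was called, and the median change was 0.12, against 0.003 over all genes. Of all 8, Sdhc included, 2 were called lower at 48 h (4.23% of all genes). In exposed cultures 2 rose between 48 h and 72 h (6.42%) and 1 fell (3.76%). The second membrane anchor gene Sdhd had a change of 0.13, the iron-sulfur subunit gene Sdhb 0.09 and the catalytic subunit gene Sdha -0.22. Sdhaf1, an assembly factor, had 0.41.

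H2bc12 encodes a histone H2B of the replication-dependent kind, whose transcripts are made in S phase and end in a stem-loop in place of a poly(A) tail. At 24 h H2bc12 had 9.35, 8.98 and 9.04 on exposed arrays, against 10.15, 10.16 and 10.26 on control arrays. At 48 h H2bc12 had 8.96, 8.84 and 8.96 on exposed arrays, against 10.08, 10.06 and 10.14 on control arrays. At 72 h H2bc12 had 10.27, 10.20 and 10.23 on exposed arrays, against 10.22, 10.14 and 9.80 on control arrays. The exposed signal was low at both early times and at the upper end of the controls at 72 h. For H2bc12 the effect changed by 1.35 ± 0.15 (SE; limma adjusted p = 0.000716), a 2.55-fold change of the ratio. Without the third control array of 72 h, the lowest of its group, the change was 1.23 (limma adjusted p = 0.000717).

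Histone genes as a list shared the direction. Of 25 measured replication-dependent histone genes, 23 had a change above 0 and 15 had one at an unadjusted p under 0.05, where 8.19% of all genes had. Only H2bc12 was called. The list median was 0.34, with a median effect at 72 h of 0.13 and at 48 h of -0.25. H4c17, a histone H4 gene, had a change of 1.35 (limma adjusted p = 0.0738) and H2ac15, a histone H2A gene at low signal, 1.23 (limma adjusted p = 0.0924). H2ac1, a testis-type H2A gene, went the other way at -0.60 (limma adjusted p = 0.0901). Histone genes of a class have nearly the same coding sequence, so a probe set may report more than the gene it is named after. The mean over the list was 6.72, 6.61 and 6.75 on exposed arrays of 24 h, against 6.94, 6.83 and 6.96 on control arrays. At 48 h the list means were 6.70, 6.59 and 6.46, against 6.92, 6.90 and 6.89, and at 72 h they were 6.94, 6.88 and 6.90, against 6.87, 6.82 and 6.70.

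Bod1 encodes a protein needed for chromosomes to attach correctly to the mitotic spindle. At 24 h Bod1 had 8.02, 8.01 and 8.15 on exposed arrays, against 9.05, 9.08 and 9.07 on control arrays. At 48 h Bod1 had 8.34, 8.07 and 7.99 on exposed arrays, against 8.91, 9.05 and 9.13 on control arrays. At 72 h Bod1 had 9.47, 9.25 and 9.27 on exposed arrays, against 9.41, 9.23 and 9.29 on control arrays. The groups were far apart early and overlapped at 72 h. Bod1's effect changed by 0.92 ± 0.13 (SE; limma adjusted p = 0.0175). A second, dimmer probe set of Bod1 had a change of 0.40 ± 0.24 (SE), and with the mean of the probe sets the change was 0.66 and no longer passed (limma adjusted p = 0.0582). Without the third control array of 72 h it was 0.91 and did not pass (limma adjusted p = 0.0535). Of 19 measured mitotic genes, 16 had a change above 0, 4 of them at an unadjusted p under 0.05 (8.19% of all genes). Bod1 alone was called, and the median was 0.07. The mitotic kinase genes Cdk1, Aurkb and Plk1 had changes of 0.20, 0.27 and -0.01.

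Dexi, a small gene whose product is poorly understood, was the called gene with the strongest early increase. At 24 h Dexi had 8.58, 8.65 and 8.40 on exposed arrays, against 7.57, 7.58 and 7.44 on control arrays. At 48 h Dexi had 8.69, 8.42 and 8.46 on exposed arrays, against 7.73, 7.61 and 7.68 on control arrays. At 72 h Dexi had 7.93, 7.80 and 7.71 on exposed arrays, against 7.80, 7.86 and 7.76 on control arrays. Exposed arrays were the higher ones at both early times and lay among the controls at 72 h. The Dexi effect changed by -0.85 ± 0.12 (SE; limma adjusted p = 0.0175). Without the third control array of 72 h it was -0.87 and did not pass (limma adjusted p = 0.0535). The 95% interval of the Dexi effect at 72 h was -0.18 to 0.19. Its promoter window above held CCAAT and GGGCGG matches. The neighbouring genes Clec16a, Socs1 and Ciita had changes of 0.01, -0.07 and -0.16, none of them called.

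**Figure D2:**
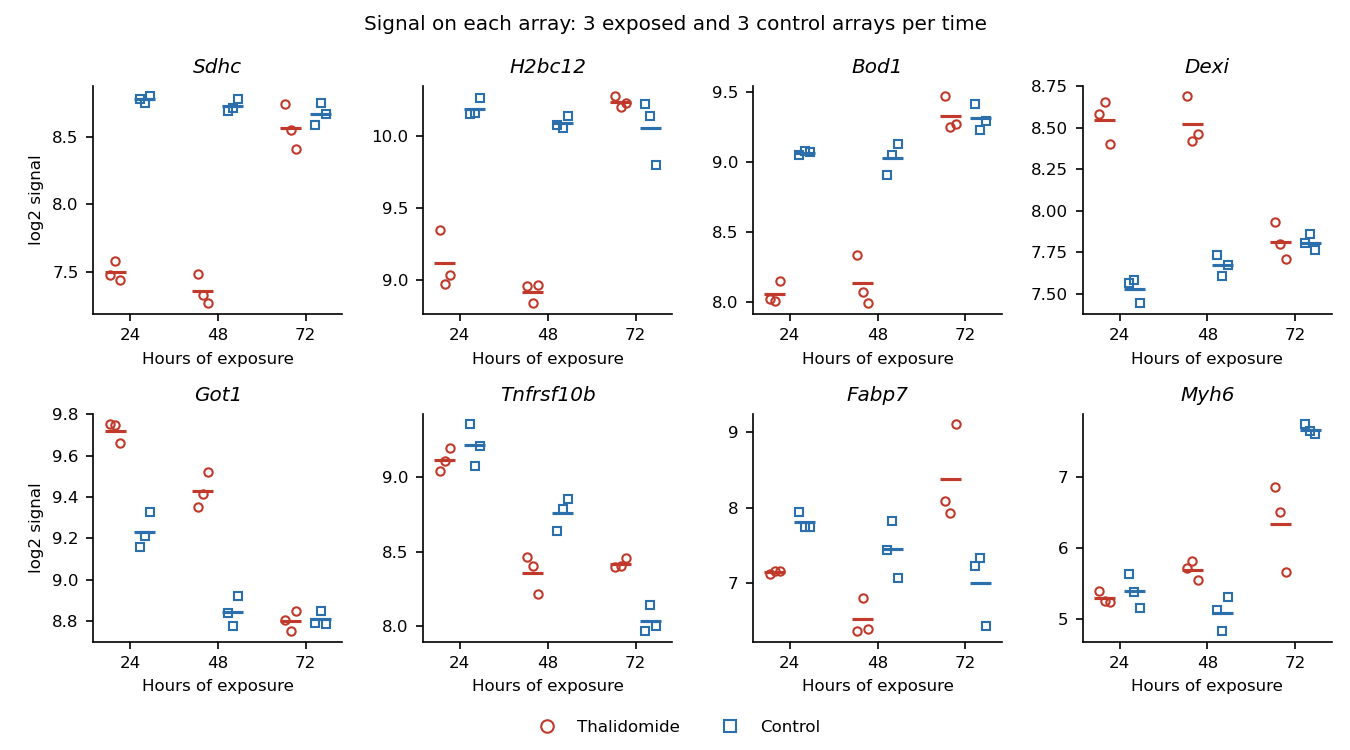
log2 signal on each array for 8 of the 21 genes, with exposed arrays (circles) left of control arrays (squares) at 24 h, 48 h and 72 h and bars at the group means (3 arrays each). In the top row and in Got1 the groups are apart at 24 h and 48 h and overlap at 72 h; in Tnfrsf10b, Fabp7 and Myh6 exposed and control arrays change places between 48 h and 72 h.

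The other genes whose effect had nearly gone by 72 h were smaller versions of the same course. Got1, the cytosolic aspartate aminotransferase, at 24 h had 9.75, 9.75 and 9.66 on exposed arrays, against 9.16, 9.21 and 9.32 on control arrays. At 48 h Got1 had 9.35, 9.42 and 9.52, against 8.84, 8.77 and 8.92, and at 72 h 8.80, 8.75 and 8.85, against 8.79, 8.85 and 8.79. Its signal was above the controls early and the groups overlapped at 72 h. The effect changed by -0.59 ± 0.09 (SE; limma adjusted p = 0.0301), or by -0.60 without the third control array (limma adjusted p = 0.0619). Stx6, a membrane fusion protein of the trans-Golgi network, had effects of 0.59, 0.51 and -0.04 at 24, 48 and 72 h. Its change was -0.55, or -0.59 without the third control array (limma adjusted p = 0.0535) and -0.54 without the third exposed one (limma adjusted p = 0.0576). Rnf41, a ubiquitin ligase acting on ErbB receptors, had effects of 0.53, 0.52 and 0.05.

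Other genes were lower on exposed arrays early and near the controls at 72 h. Eef1e1, a scaffold of the aminoacyl-tRNA synthetase complex, at 24 h had 9.65, 9.75 and 9.84 on exposed arrays, against 10.39, 10.41 and 10.38 on control arrays. At 48 h Eef1e1 had 9.57, 9.41 and 9.36 on exposed arrays, against 10.005, 9.98 and 10.19 on control arrays. At 72 h Eef1e1 had 10.07, 10.03 and 10.05, against 9.97, 9.97 and 9.63. Exposed arrays were all below the controls at the early times and all above them at the later one. Its change was 0.81 ± 0.13 (SE; limma adjusted p = 0.0301), and 0.69 without the third control array (limma adjusted p = 0.0535) or 0.81 without the third exposed one (limma adjusted p = 0.0559). Eif1b, a relative of the start codon factor eIF1, had effects of -0.63, -0.60 and 0.00 at 24, 48 and 72 h. Myd88, the adaptor of Toll-like and interleukin 1 receptors, had -0.68, -0.71 and 0.10. For Ercc3, a DNA helicase of the transcription and repair factor TFIIH, the effects were -0.48, -0.59 and -0.05. Tm2d3, a membrane protein gene, had -0.58, -0.50 and 0.05, and Tox3, an HMG-box protein gene, had -0.32, -0.53 and 0.08.

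Mrps21 encodes a protein of the small subunit of the mitochondrial ribosome, which makes respiratory chain proteins. At 24 h Mrps21 had 6.93, 7.18 and 7.05 on exposed arrays, against 7.81, 7.77 and 7.87 on control arrays. At 48 h Mrps21 had 7.01, 7.25 and 7.004 on exposed arrays, against 7.97, 7.80 and 7.96 on control arrays. At 72 h Mrps21 had 7.79, 7.59 and 7.74, against 7.77, 7.77 and 7.86. The groups were apart first and overlapped later. Its effect changed by 0.73 ± 0.12 (SE; limma adjusted p = 0.0303), or by 0.76 without the third control array (limma adjusted p = 0.0619) and 0.71 without the third exposed one (limma adjusted p = 0.0576). Of 71 measured genes of the mitochondrial ribosome, 55 had a change above 0 and 23 had one at an unadjusted p under 0.05 (8.19% of all genes). Mrps21 was the only one called, and the median was 0.17. The median effect of these genes was 0.01 at 72 h and -0.15 at 48 h, with 12 called lower at 48 h (4.23% of all genes). Mrpl32 had a change of 0.74 (limma adjusted p = 0.0738) and Mrpl52 one of 0.52 (limma adjusted p = 0.0572).

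Nuclear genes for respiratory chain complexes I, III, IV and V shared that course without a called member. Of 72 measured, 59 had a change above 0, 20 of them at an unadjusted p under 0.05 (8.19% of all genes), and the median was 0.13. Their median effect was 0.00 at 72 h and -0.16 at 48 h, with 14 called lower (4.23% of all genes) and 1 higher (1.85%) at 48 h. Atp5h, a subunit of ATP synthase, had a change of 0.41 (limma adjusted p = 0.0678). Cox6a2, the muscle form of a cytochrome oxidase subunit, had one of -0.56. With genes split into 4 bins by mean signal, the median change was 0.04 among the brightest and -0.04 among the dimmest. The list median was 0.09 once arrays had been aligned by cyclic loess.

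**Figure D3:**
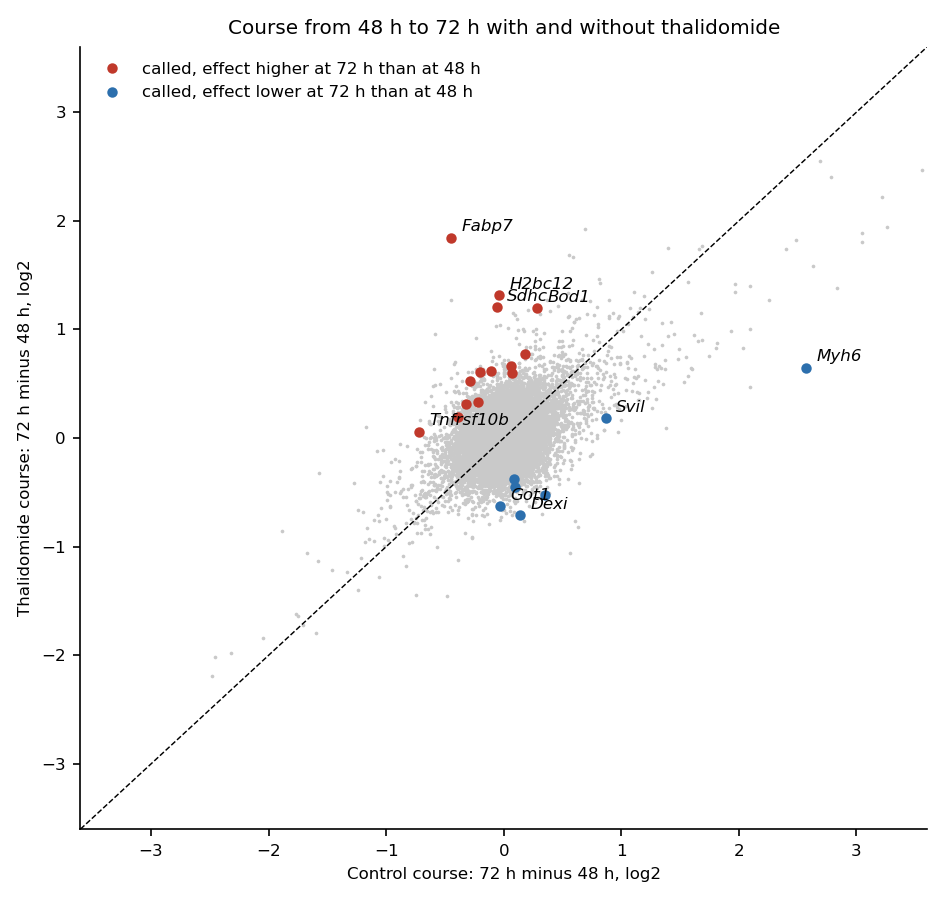
Course between 48 h and 72 h on control arrays (x) against thalidomide arrays (y), both as 72 h minus 48 h in log2, for 22180 genes (grey), with the 21 called genes coloured and the dashed line marking equal courses. Sdhc, H2bc12 and Dexi lie near 0 on the control axis and far from it on the thalidomide axis. Bod1 rose on control arrays too, and further on thalidomide arrays. Myh6 (2.57 in control, 0.65 with thalidomide) lies far along the control axis.

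Of the 7 genes with an opposite effect over 0.2 in size at 72 h, Myh6 had the largest fall of the effect. It encodes the alpha form of cardiac myosin heavy chain, a motor of the sarcomere. At 24 h Myh6 had 5.39, 5.25 and 5.24 on exposed arrays, against 5.64, 5.38 and 5.16 on control arrays. At 48 h Myh6 had 5.71, 5.81 and 5.55 on exposed arrays, against 5.13, 4.83 and 5.31 on control arrays. At 72 h Myh6 had 6.86, 6.51 and 5.66 on exposed arrays, against 7.74, 7.64 and 7.60 on control arrays. Groups overlapped at first, exposed arrays then lay above the controls, and at 72 h all lay below them, the third one furthest. For Myh6 the effect changed by -1.92 ± 0.30 (SE; limma adjusted p = 0.0301), with a 95% interval of -2.56 to -1.28. Control arrays rose by 2.57 between the times (5.93-fold; limma adjusted p = 2.57e-06), while the course on exposed arrays was 0.65 (limma adjusted p = 0.0632). Without the third exposed array the change was -1.58 (limma adjusted p = 0.00689), and without the third control array it was -1.95 and did not pass (limma adjusted p = 0.0619). The effect at 72 h alone was -1.32 (limma adjusted p = 0.0721).

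Most sarcomere genes had changes in the same direction. Of 27 measured, Myh6 included, 25 were below 0 and 14 had an unadjusted p under 0.05 in that direction, where 5.83% of all genes had. The other 2 were above 0, up to 0.31, 1 of them at an unadjusted p under 0.05 (8.19% of all genes). Myh6 was the only one called, and the median was -0.39. Ttn, the giant spring protein titin, had a change of -1.32 ± 0.38 (SE; limma adjusted p = 0.132), and the cardiac actin gene Actc1 one of -1.09 ± 0.47 (SE; limma adjusted p = 0.308). Both rose in either culture: Ttn by 1.94 on exposed and 3.26 on control arrays, Actc1 by 2.46 on exposed and 3.55 on control arrays. Myl7, a light chain of atrial myosin, had -0.14, with effects of -1.23 at 72 h and -1.09 at 48 h. Over the list 12 genes rose in exposed cultures (6.42% of all genes did) and 19 in control cultures (3.62% of all genes). The list means of 72 h were 6.60, 6.58 and 6.04 on exposed arrays, against 6.92, 6.95 and 6.995 on control arrays. The median change was -0.27 without the third exposed array.

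**Figure D4:**
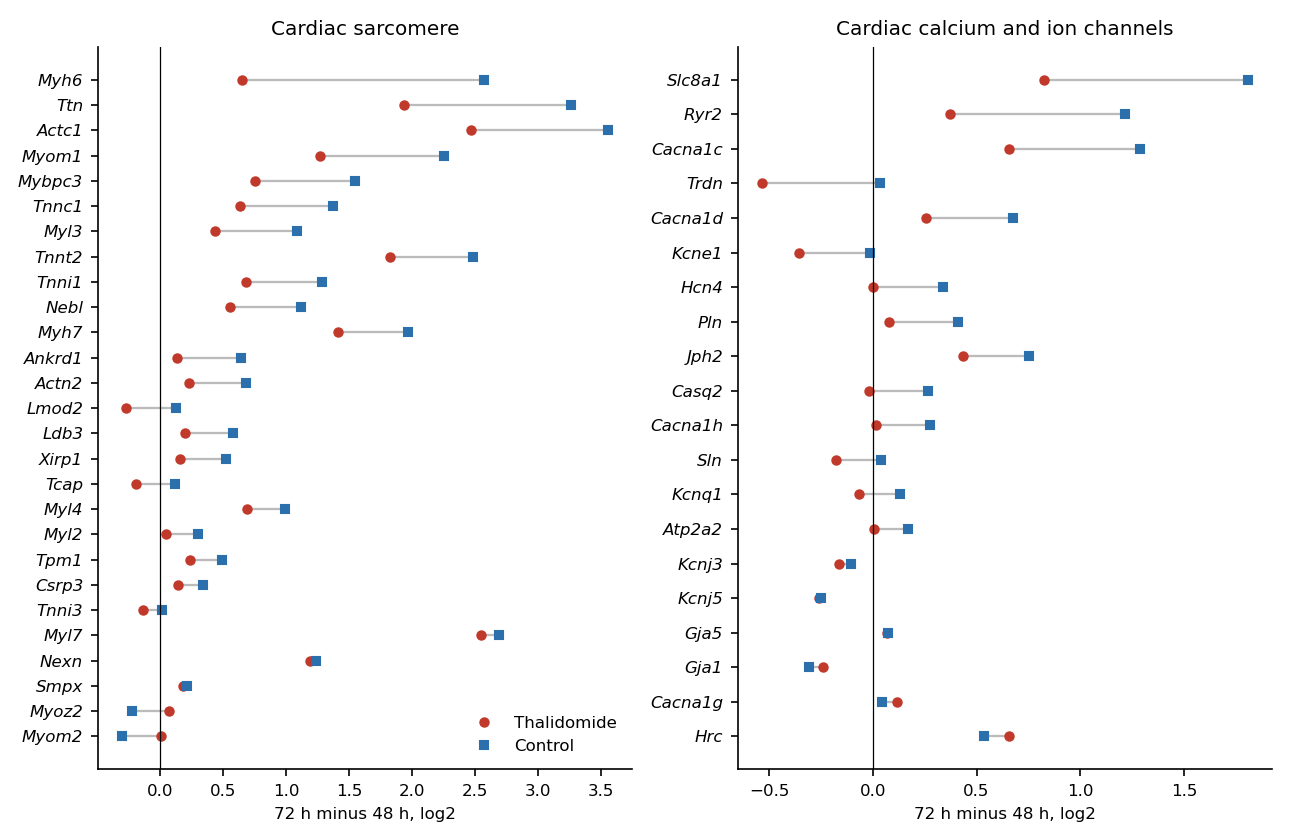
Course between 48 h and 72 h (log2) on thalidomide arrays (circles) and control arrays (squares) for 27 sarcomere genes and 20 calcium and ion channel genes of heart muscle, ordered by the change of effect. In 25 sarcomere genes the circle lies left of the square, widest in Myh6; Myl7 and Nexn have nearly the same course in both.

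Genes for calcium handling and ion channels in the heart had a median change of -0.27 over 20 measured, with 17 below 0, 6 of them at an unadjusted p under 0.05 (5.83% of all genes), and 0 called. That median was -0.21 without the third exposed array. Ryr2 had 6.60, 6.65 and 6.25 on exposed arrays of 72 h, against 7.20, 7.40 and 7.42 on control arrays. Every exposed array was below every control array. Its change of effect was -0.85 ± 0.17 (SE; limma adjusted p = 0.0572), or -0.72 without the third exposed array. Slc8a1, the sodium-calcium exchanger, had a change of -0.98 (limma adjusted p = 0.135). Cardiac transcription factor genes had a median of -0.35 over 18 measured, with 14 below 0 and 0 called, and a median of -0.24 without the third exposed array. Among them were Smyd1, a muscle methyltransferase gene, at -0.94, Mef2c at -0.77 and Hand2 at -0.73.

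Svil encodes supervillin, which ties actin and myosin to membranes. At 24 h Svil had 6.59, 6.57 and 6.54 on exposed arrays, against 6.48, 6.25 and 6.47 on control arrays. At 48 h Svil had 6.57, 6.57 and 6.59 on exposed arrays, against 6.50, 6.35 and 6.28 on control arrays. At 72 h Svil had 6.85, 6.84 and 6.60 on exposed arrays, against 7.27, 7.18 and 7.28 on control arrays. Exposed arrays were slightly the higher ones first and all the lower ones later. The effect changed by -0.68 ± 0.12 (SE; limma adjusted p = 0.0341). The course was 0.18 on exposed and 0.87 on control arrays. Without the third exposed array the change was -0.60 (limma adjusted p = 0.0576), and without the third control array it was -0.67 (limma adjusted p = 0.0742).

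Blood and endothelial genes had a median of -0.30 over 20 measured, with 15 below 0, 5 above 0 (up to 0.65) and 0 called. At an unadjusted p under 0.05, 6 were lower (5.83% of all genes) and 2 higher (8.19%). The median of this blood and endothelial list was -0.28 without the third exposed array. Cdh5, the cadherin of endothelial junctions, had 8.76, 8.37 and 7.46 on exposed arrays of 72 h, against 9.14, 9.22 and 9.51 on control arrays. All exposed arrays were below the controls, and the third was the lowest. Its change was -1.24 ± 0.32 (SE; limma adjusted p = 0.106), or -0.87 without that array (limma adjusted p = 0.118). Stab1, a scavenger receptor of endothelium and macrophages that is on none of the lists, had -0.86 (limma adjusted p = 0.0572). Collagen and matrix genes had a median of -0.17 over 17 measured, with 11 below 0, 6 above 0 and 0 called. Postn, Col3a1 and Col1a1 had -1.45, -1.21 and -0.53, while the highest member had 0.58. At an unadjusted p under 0.05, 6 were lower (5.83% of all genes) and 2 higher (8.19%). Smooth muscle genes had a median of -0.12 over 13 measured, with 8 below 0, 5 above 0 and 0 called, and within them Mylk, the kinase that starts smooth muscle contraction, had 0.81 (limma adjusted p = 0.0738).

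Fabp7, the fatty acid binding protein of radial glia and neural progenitors, had the largest rise of the effect among the 21 genes. At 24 h Fabp7 had 7.12, 7.16 and 7.16 on exposed arrays, against 7.94, 7.74 and 7.75 on control arrays. At 48 h Fabp7 had 6.37, 6.81 and 6.395 on exposed arrays, against 7.44, 7.83 and 7.08 on control arrays. At 72 h Fabp7 had 8.09, 7.93 and 9.10 on exposed arrays, against 7.22, 7.34 and 6.43 on control arrays. Exposed arrays were below every control early and above every control at 72 h, with the third array of each group the most extreme. For Fabp7 the effect changed by 2.29 ± 0.38 (SE; limma adjusted p = 0.0303), a 4.90-fold change of the ratio. Exposed cultures rose by 1.84 between the times (limma adjusted p = 0.000481), while the control course was -0.45 (limma adjusted p = 0.403). Without the third exposed array the change was 1.93 (limma adjusted p = 0.0394), and without the third control array it was 2.01 and did not pass (limma adjusted p = 0.0619).

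Neural genes as a list, which does not hold Fabp7, had changes mostly above 0. Of 20 measured, 16 were above 0, 7 of them at an unadjusted p under 0.05 (8.19% of all genes), 0 were called, and the median was 0.25. Sox1, a transcription factor of the early neural plate, had 7.17, 6.76 and 7.64 on exposed arrays of 72 h, against 6.397, 6.64 and 5.70 on control arrays. Exposed arrays were above all controls. The change for Sox1 was 1.71 ± 0.33 (SE; limma adjusted p = 0.0572), against 1.49 without the third exposed array and 1.44 without the third control array. Olig2, a progenitor factor of the ventral neural tube, had 1.13, the neuronal tubulin gene Tubb3 0.98 and the forebrain factor gene Otx2 0.79 (limma adjusted p = 0.0698). The median effect of the list was 0.34 at 72 h and 0.10 at 48 h, and 8 members rose in exposed cultures (6.42% of all genes did) and 0 in control cultures (3.62%). Without the third exposed array the list median was 0.17, and without the third control array it was 0.16.

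Tnfrsf10b encodes the mouse death receptor for the ligand TRAIL and is a target of p53. At 24 h Tnfrsf10b had 9.04, 9.11 and 9.19 on exposed arrays, against 9.35, 9.08 and 9.20 on control arrays. At 48 h Tnfrsf10b had 8.46, 8.40 and 8.21 on exposed arrays, against 8.63, 8.79 and 8.85 on control arrays. At 72 h Tnfrsf10b had 8.40, 8.40 and 8.45 on exposed arrays, against 7.97, 8.14 and 7.998 on control arrays. Signals were lower in both cultures after 24 h, exposed arrays first being the lower ones and then the higher ones. The effect changed by 0.78 ± 0.12 (SE; limma adjusted p = 0.0301). It was 0.76 without the third exposed array (limma adjusted p = 0.0559), and likewise 0.76 without the third control array (limma adjusted p = 0.0619). Between 48 h and 72 h control cultures fell by 0.72 on the log2 scale (limma adjusted p = 7.47e-05), while the exposed course was 0.06. Of 15 measured p53 targets 12 had a change above 0, 5 of them at an unadjusted p under 0.05 (8.19% of all genes). Below 0 were 3, down to -0.35, 1 of them at that p (5.83%). The median was 0.14, and Tnfrsf10b alone was called. Perp, a desmosome protein gene, had 0.60 (limma adjusted p = 0.0595) and the cell cycle inhibitor gene Cdkn1a 0.49 (limma adjusted p = 0.122).

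The last 3 called genes were Slc5a2, Cyb561d2 and Olfr412. Slc5a2, the renal glucose transporter SGLT2, had effects of -0.17, -0.33 and 0.30 at 24, 48 and 72 h. Cyb561d2, of the cytochrome b561 family, had -0.15, -0.27 and 0.32. Olfr412, an olfactory receptor gene, had 0.27, 0.59 and -0.29, at a mean signal above that of 13.2% of genes. Their changes of effect were 0.63, 0.58 and -0.88.

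Genes tied to how thalidomide acts had no called change. Crbn, which encodes cereblon, had 8.23, 8.02 and 8.18 on exposed arrays of 72 h, against 8.32, 8.23 and 8.19 on control arrays. The groups overlapped. Its effects were -0.38, -0.31 and -0.11 at 24, 48 and 72 h, and the change between the last times was 0.20 ± 0.13 (SE; limma adjusted p = 0.52). Sall4, a limb and stem cell factor and a known target of the drug-bound ligase in humans, had a change of 0.15 with its brighter probe set and -0.02 as the mean of its probe sets. Its 95% interval was -0.06 to 0.35. The list of the ligase and its known substrates, 14 measured, had a median of 0.06 and 0 called.

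Several other lists held no called gene. Pluripotency genes and primitive streak genes, 22 measured in each list, had a median change of 0.02 each and 0 called. Definitive endoderm genes had a median of 0.16 over 12 measured and 0 called, with Cer1, a secreted Nodal and BMP inhibitor, at 1.03, the chemokine receptor gene Cxcr4 at 0.50 (limma adjusted p = 0.0595) and Nepn at -1.28. Hox genes had a median of -0.17, with 27 of 36 below 0. Imprinted genes had a median of -0.19, with 12 of 14 below 0, and genes of glycolysis and hypoxia one of -0.17, with 17 of 21 below 0. All 3 lists had 0 called. Over all 22180 genes, 10951 were below 0. At an unadjusted p under 0.05, 5 Hox, 3 imprinted and 3 glycolysis and hypoxia genes were lower (5.83% of all genes), and 1 Hox gene was higher (8.19%). Among the imprinted genes Dlk1, a membrane inhibitor of differentiation, had -0.99 (limma adjusted p = 0.121). For small nucleolar RNAs, 73 measured, the median was -0.01, and for cytosolic ribosomal protein genes, 63 measured, it was 0.07, both with 0 called.

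**Figure D5:**
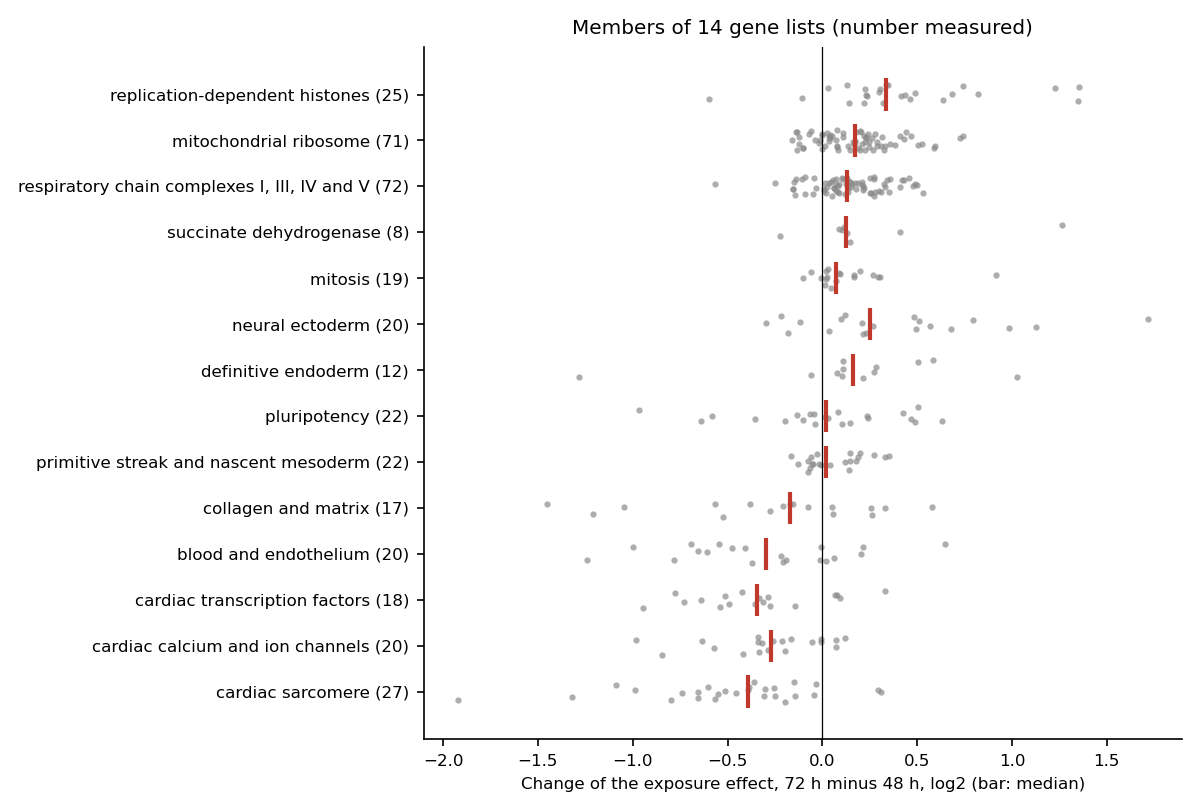
Change of the exposure effect between 48 h and 72 h (log2) for each measured member of 14 gene lists, with a bar at the list median and the number of members in brackets. Histone, mitochondrial ribosome and neural members lie mostly right of 0. Sarcomere, channel, cardiac factor, and blood and endothelial members lie mostly left of it, while pluripotency and streak members lie around 0.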

How the data were processed

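Embryoid body RNA, 18 samples, was hybridised to 18 Affymetrix arrays. The authors deposited log2 signals, 1 per probe set and array. RMA and Affymetrix Expression Console 1.3 are named for this step in the submitters' processing notes. Sorted values of any pair of arrays differed by at most 0.190, so each value stands relative to the rest of its array. No genome build was stated in the labels used here. No detection values were used, and the number of arrays limits precision.

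From these values 41345 probe sets were named through the platform annotation, of which 23521 had 1 gene symbol. The other 17824, among them 1814 with several symbols, were named no gene here. Of the named ones, 23328 matched RefSeq GRCm38.p6 identifiers, with 0 symbols changed. The probe set with the highest mean stood for each of 22180 genes (1082 had several). The model, in limma 3.58.1 (R 4.3.3), had a mean for each group, used all 18 arrays, and moderated variances by plain eBayes (12 residual and 4.35 prior degrees of freedom). P-values are two-sided and were adjusted by Benjamini-Hochberg over all genes, with a threshold of 0.05. The fit was tested on simulated data. Titles call arrays of a group biological replicates. Nothing says whether these were separate cultures, so p-values measure the spread between these samples. The smallest SD of the difference between a pair of replicates was 0.183, so no array was a copy.

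The genes, lists (37) and comparison were chosen with earlier results of these data known. Named genes were Sdhc, H2bc12, Dexi, Myh6, Crbn and Sall4, the 15 smallest p in each direction, the 10 largest called changes in each direction, and called members of lists or otherwise the member with the smallest p. Predicted loci were left out. Further list members were chosen after their values were seen. Lists are described by counts and medians, without a set test. Alternatives were cyclic loess, a signal filter, other probe set rules, fewer arrays, trend and robust, array weights, a replicate block, a 1.5-fold minimum and leaving out each array.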

Additional observations from a re-analysis of the deposited data

Results flagged for a closer look

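For 21 genes limma's test of the difference between 2 times found that the exposure effect at 72 h differed from that at 48 h. Groups of 3 arrays are too small to test single arrays as outliers. Genes lower in exposed cultures at 48 h and near the controls at 72 h had log2 differences of effects of Sdhc 1.26, H2bc12 1.35, Bod1 0.92, Eef1e1 0.81, Mrps21 0.73, Tm2d3 0.55, Ercc3 0.53, Eif1b 0.60, Myd88 0.81 and Tox3 0.61. Genes higher in exposed cultures at 48 h and near the controls at 72 h had Dexi -0.85, Got1 -0.59, Stx6 -0.55 and Rnf41 -0.47. Genes with effects of opposite sign at the 2 times, over 0.2 in size at 72 h, formed the last group. Their differences were Fabp7 2.29, Tnfrsf10b 0.78, Slc5a2 0.63, Cyb561d2 0.58, Myh6 -1.92, Svil -0.68 and Olfr412 -0.88.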

How the results depend on the processing

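Sdhc and H2bc12 passed in all 19 alternatives, and none of the 21 called genes reversed in any. The change of Sdhc ran between 1.17 and 1.34 and that of H2bc12 between 1.23 and 1.44. Dexi passed in 14, Bod1 in 12, Myh6 in 11 (-2.18 to -1.58) and Got1 in 10. The other 15 passed in 9 or fewer: Fabp7 (1.93 to 2.52), Tnfrsf10b and Eef1e1 in 9, Stx6, Slc5a2, Mrps21, Svil, Eif1b and Tox3 in 7, Cyb561d2, Tm2d3, Ercc3 and Myd88 in 6, Rnf41 in 5 and Olfr412 in 3 of 18. Sall4 alone among 60 named genes changed sign (-0.020 when its probe sets were averaged). The cause of each shift below was not tested. Counts are given for the change of effect as all, higher and lower.

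Genes at or above the median signal gave 365, 292 and 73 calls and 38 at 72 h. All probe sets gave 22 calls of 41345 (0.0532%) and 0 at 72 h. Only the 12 arrays of 48 h and 72 h gave 2, 2 and 0, and 0 at 72 h. Trend and robust options gave 350, 276 and 74, and 30 at 72 h. Array weights gave 89, 65 and 24. With the replicate block, 5, 3 and 2 were called, and 4 at 72 h. The numbers did not pair the arrays: deviations of same-numbered arrays correlated at -0.160 to 0.127, with 3 of 45 over 0.1. Cyclic loess gave 25 calls, 20 of them among the 21, the mean of probe sets 22, and a minimum of 1.5-fold 17.

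Leaving out 1 array gave 2 to 31 calls, 2 to 22 higher and 0 to 9 lower. It gave 2 without the second control of 48 h, replicate 2 or 3 of the 72 h control, or replicate 3 of the 48 h exposed group, and 31 without the second exposed array of 72 h. At 72 h the range was 0 to 81, at 48 h 494 to 1373, for the exposed course 1275 to 2282 and for the control course 805 to 1542. The step between 24 h and 48 h gave 0 in every alternative. Of 703 list medians compared, 17 moved. With dim genes removed the median of the sarcomere list was -0.59, of the blood and endothelial list -0.61 and of the neural list 0.59.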

Other observations

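The 14 genes near the controls at 72 h had changes of effect between 24 h and 48 h of -0.22 to 0.11. Of all 21, the course between 48 h and 72 h was called in exposed cultures for 17 (10.2% of all genes). In control cultures it was called for 5 (6.53%). Both courses are part of the difference that picked these genes.

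Interferon-linked Bst2, a membrane protein that tethers viruses, had a change of 1.11 ± 0.21 (SE; limma adjusted p = 0.0555) and effects of -0.91, -0.95 and 0.16 at 24, 48 and 72 h. The list of interferon-linked genes, 12 measured, had a median of 0.005 and 0 called. Ift27, a protein of intraflagellar transport in cilia, had a change of 0.72 (limma adjusted p = 0.0538) and effects of -0.73, -0.71 and 0.01. Snord104, a small nucleolar RNA, had one of -0.68 (limma adjusted p = 0.0835) and effects of 0.91, 0.81 and 0.14. The glucose transporter gene Slc2a3 had one of -0.33 (limma adjusted p = 0.121) and effects of 0.61, 0.37 and 0.04.

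Of 41345 probe sets tested together, 22 were called, and 10 of these have no single gene symbol in the table used here.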
